A study of Arabidopsis thaliana and Cardamine hirsuta and Capsella rubella with 102 samples.

Results

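The genes described here were 8 Arabidopsis gibberellin oxidase genes and 1 DELLA gene: GA20OX1 (AT4G25420), GA20OX2 (AT5G51810), GA3OX1 (AT1G15550), GA2OX1 (AT1G78440), GA2OX2 (AT1G30040), GA2OX4 (AT1G47990), GA2OX6 (AT1G02400), GA2OX8 (AT4G21200) and RGL3 (AT5G17490). They were picked by name, with their flg22 responses in these libraries already known, and are 9 of the 27416 genes in the Arabidopsis count tables. Their differences between flg22 and mock libraries are therefore given as a description, without p-values. In the 3 other species 1:1 orthologs were taken from the study's supplemental lists, of which some were at hand only in part. The parts at hand gave orthologs of 4 of the 9 genes, GA3OX1, GA2OX2, GA2OX6 and RGL3, and those of the other 5 were not analysed here. Several of these lists hold only genes that the study called differentially expressed after flg22. A response in some genotype can therefore have decided which orthologs were found.

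The study followed the transcriptome of Brassicaceae seedlings after flg22, the flagellin peptide that the receptor kinase FLS2 recognizes. Seedlings 12 days old received 1 µM flg22 or mock medium. Arabidopsis thaliana Col-0, Capsella rubella, Cardamine hirsuta and Eutrema salsugineum were sampled at 1, 9 and 24 h, and the A. thaliana accessions Kon, Can-0, No-0, Kn-0 and Gy-0 at 1 h, with 3 libraries for each of the 34 groups (102 libraries). Each library pooled whole seedlings from several wells of 1 of 3 independent experiments, and each genotype was 1 wild-type line, so n counts experiments and not plants or lines. Libraries held 19327936 to 36897285 gene-assigned reads in the 4-species experiment and 14039779 to 28168094 in the 5 other accessions. The flg22 marker genes FRK1, PROPEP3 and WRKY29 summed to 5.55 to 21.1 CPM (a gene's reads per 1000000 gene-assigned reads, with library totals scaled by TMM) in the 1 h mock libraries of the 6 accessions, and to 153 to 899 CPM in the flg22 libraries. In Col-0 at 1 h the green-tissue genes RBCS1A and CAB1 summed to 22800 to 32500 CPM in mock and 18600 to 25700 CPM in flg22, and the root genes EXPA7, COBL9 and MYB36 to 5.57 to 10 CPM and 8.06 to 17.9 CPM, with no gene of either list at 0. The part of such tissue shifts in the values below was not tested, and in whole seedlings fewer cells of a type cannot be told apart from less RNA per cell.

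Gibberellins are diterpenoid hormones that promote stem, leaf and root growth and germination. GA 20-oxidases and GA 3-oxidases carry out the last steps towards bioactive gibberellin. GA 2-oxidases inactivate the bioactive hormone or its precursors. The hormone binds GID1 receptors, and the complex leads to the breakdown of DELLA proteins, nuclear repressors of growth, of which RGL3 is the member best known for its links to jasmonate signalling and defence. Bioactive hormone also lowers the transcripts of its own 20- and 3-oxidases and raises those of several 2-oxidases.

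The upstream sequences of the 4 genes with the clearest responses are shown because these genes moved in opposite directions at the same hour: GA2OX6 and GA2OX2 upward, GA3OX1 and GA20OX2 downward. Each run is the 300 bases before the RefSeq gene start in the TAIR10.1 assembly, written 5′ to 3′ on the gene's strand. Capitals mark the W-box core TTGAC or its reverse complement GTCAA. The core is only part of the element that WRKY factors bind, and the bases beside it were not matched.
GA2OX6 (chr1:486500-486799, plus strand): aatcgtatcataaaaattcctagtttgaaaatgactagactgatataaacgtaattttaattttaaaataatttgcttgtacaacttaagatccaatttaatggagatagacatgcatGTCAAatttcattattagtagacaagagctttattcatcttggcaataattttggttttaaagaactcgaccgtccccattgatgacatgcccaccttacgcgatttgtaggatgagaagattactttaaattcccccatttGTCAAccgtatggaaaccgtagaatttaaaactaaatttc
GA2OX2 (chr1:10537157-10537456, plus strand): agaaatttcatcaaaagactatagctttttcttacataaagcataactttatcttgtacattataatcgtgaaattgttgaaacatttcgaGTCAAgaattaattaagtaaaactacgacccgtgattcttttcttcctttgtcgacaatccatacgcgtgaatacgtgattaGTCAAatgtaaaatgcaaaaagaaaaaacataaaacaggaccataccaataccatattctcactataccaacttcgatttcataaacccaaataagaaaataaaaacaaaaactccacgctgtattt
GA3OX1 (chr1:5346343-5346642, minus strand): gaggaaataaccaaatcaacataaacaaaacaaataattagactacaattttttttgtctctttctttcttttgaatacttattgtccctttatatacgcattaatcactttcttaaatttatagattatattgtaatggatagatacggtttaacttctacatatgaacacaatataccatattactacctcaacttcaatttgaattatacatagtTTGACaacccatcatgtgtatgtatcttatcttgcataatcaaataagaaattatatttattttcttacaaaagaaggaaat
GA20OX2 (chr5:21056882-21057181, minus strand): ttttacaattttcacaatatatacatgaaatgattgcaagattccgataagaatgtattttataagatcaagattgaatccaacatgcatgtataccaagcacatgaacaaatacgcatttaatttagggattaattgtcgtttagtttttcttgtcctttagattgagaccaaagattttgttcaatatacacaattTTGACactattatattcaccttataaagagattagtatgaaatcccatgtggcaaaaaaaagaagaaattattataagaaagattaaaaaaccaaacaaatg

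GA2OX6 had 2 W-box cores, starting 182 and 40 bases before the gene start, and GA2OX2 had 2, at 209 and 127 bases. GA3OX1 and GA20OX2 had 1 each, at 82 and 102 bases. Of all 27443 protein-coding upstream windows of this length, 50.4% held at least 1 core and 17.9% held 2 or more, so cores stood before genes that rose and genes that fell, and before many others. Of the other members GA2OX1 had 3 cores, GA20OX1 and GA2OX8 had 1 each, and GA2OX4 and RGL3 had none. The G-box CACGTG, a palindrome, was in 1 member's window, that of GA2OX4 at 90 bases, and in 7.09% of all windows. None of the 9 windows overlapped a neighbouring protein-coding gene. A match is a stretch of letters only, and binding was not measured.

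The genes lie on 3 chromosomes. GA2OX6 spans chr1:486800-489651, GA3OX1 chr1:5344388-5346342, GA2OX2 chr1:10537457-10540044, GA2OX4 chr1:17698598-17701041 and GA2OX1 chr1:29511561-29513100. GA2OX8 spans chr4:11302682-11306770 and GA20OX1 chr4:12990851-12992585, while RGL3 spans chr5:5763989-5766246 and GA20OX2 chr5:21055179-21056881. RGL3 has 1 exon, GA20OX1, GA20OX2, GA3OX1, GA2OX2 and GA2OX6 have 2, and GA2OX1, GA2OX4 and GA2OX8 have 3 in their longest RefSeq transcript.

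Per kilobase of exon, GA3OX1 and GA2OX6 had the highest levels of the 9 genes in mock-treated Col-0 at 1 h, at 6.42 and 4.09 CPM per kb. RGL3 (2.12), GA2OX8 (1.94), GA20OX2 (1.39) and GA2OX2 (1.27 CPM per kb) followed. GA2OX4 (0.821) and GA20OX1 (0.426) were lower, and GA2OX1 was lowest at 0.0188 CPM per kb. After 1 h of flg22 the order was led by GA2OX6 at 60.2 CPM per kb, ahead of GA2OX2 at 3.14 and GA3OX1 at 2.42. All later levels are in CPM without division by length, and compare libraries for 1 gene.

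Among the inactivating enzymes, GA2OX6 had the largest fitted difference of the 8 genes tested in Col-0 at 1 h. Its 3 mock libraries at 1 h had 4.61, 6.05 and 7.50 CPM, and the flg22 libraries had 90.8, 76.2 and 100.4 CPM. Every flg22 library stood far above every mock library, and the fitted log2 difference was 3.87 ± 0.24 (SE, n = 3). At 9 h mock libraries had 9.02, 8.81 and 8.41 CPM against 38.7, 25.4 and 28.6 CPM with flg22 (log2 1.81 ± 0.22). At 24 h the values were 7.61, 11.3 and 6.82 CPM against 38.9, 27.9 and 25.6 CPM (1.84 ± 0.23). The groups did not overlap at any time, and the later differences were smaller than that at 1 h, a change in size that was not itself tested.

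GA2OX2, a further 2-oxidase acting on C19 gibberellins, had 2.48, 2.68 and 2.48 CPM in Col-0 mock at 1 h and 6.32, 4.87 and 7.80 CPM with flg22 (log2 1.33 ± 0.27). At 9 h the groups overlapped, with 5.29, 5.83 and 4.34 CPM in mock and 3.92, 7.26 and 3.73 CPM with flg22 (-0.07 ± 0.26). At 24 h the mock libraries had 6.22, 6.13 and 4.504 CPM and the flg22 libraries 8.20, 6.36 and 8.61 CPM (0.47 ± 0.26). Only the 1 h difference passed the thresholds for a call, an adjusted p below 0.01 and an absolute log2 fold change above 1. That call did not hold without replicate 1 (1.32) or without replicate 3 (1.13).

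At 1 h the synthesis genes GA3OX1 and GA20OX2 moved the other way. GA3OX1, whose enzyme makes the bioactive hormone, had 7.63, 10.2 and 11.4 CPM in Col-0 mock at 1 h and 3.23, 3.28 and 4.54 CPM with flg22 (log2 -1.41 ± 0.24). The lowest mock library stood above the highest flg22 library. At 9 h mock libraries had 8.01, 7.79 and 6.64 CPM, inside the range of the flg22 libraries at 5.38, 4.13 and 9.88 CPM (-0.27 ± 0.23). At 24 h they had 11.9, 13.2 and 14.3 CPM against 6.58, 5.42 and 5.91 CPM (-1.13 ± 0.23), again without overlap. The root markers summed to 12.4 to 18.1 CPM in these mock libraries and 7.03 to 7.67 CPM in these flg22 libraries, and their part in the difference was not tested. The 24 h call was lost whichever replicate was left out (-1.28 to -1.04).

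GA20OX2, which acts a step earlier, had 1.67, 2.93 and 1.91 CPM in mock at 1 h and 0.494, 0.474 and 0.461 CPM with flg22 (log2 -2.11 ± 0.50). These are 43, 72 and 54 reads against 15, 11 and 13. Leaving out any 1 replicate ended this call (-2.33 to -1.88). At 9 h (0.41 ± 0.45) and 24 h (-1.04 ± 0.48) mock and flg22 libraries overlapped. The highest of all 18 values, 3.93 CPM, was that of a mock library at 24 h whose 2 companions had 0.767 and 1.89 CPM. GA20OX1, of the same enzyme class, had 15, 16 and 21 reads in mock at 1 h and 6, 17 and 12 with flg22 (log2 -0.60 ± 0.63). At 24 h it had 40, 43 and 36 reads in mock and 26, 29 and 18 with flg22, without overlap (-0.65 ± 0.57). No time point gave a call for GA20OX1.

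The remaining 2-oxidases and RGL3 gave no call against mock in Col-0. GA2OX4 had 8, 8 and 2 reads in mock and 21, 26 and 15 with flg22 at 9 h, without overlap (log2 2.01 ± 0.64, not called). GA2OX8, which acts on C20 precursors, was lower with flg22 at 9 h (2.54 ± 0.45 against 1.36 ± 0.11 CPM, mean ± SD, n = 3; log2 -0.91 ± 0.26) and higher at 24 h (2.48 ± 0.27 against 3.57 ± 0.41 CPM; 0.52 ± 0.25), with no overlap at either time and neither called. GA2OX1 was below the filter of a mean of 10 reads per library. It had 0 to 6 reads in each library at 1 and 9 h and 0 to 51 at 24 h, and the library with 51 was mock.

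RGL3 had 6.31, 4.43 and 3.61 CPM in mock and 3.79, 4.57 and 3.26 CPM with flg22 at 1 h in Col-0, which overlapped (log2 -0.30 ± 0.21). At 9 h the means were 4.12 ± 0.68 and 5.09 ± 0.60 CPM (SD, n = 3, log2 0.31 ± 0.21). The lowest flg22 library, at 4.55 CPM, stood just above the highest mock library, at 4.52 CPM. At 24 h the means were 1.92 ± 0.29 and 2.84 ± 0.21 CPM (0.58 ± 0.22), with all flg22 libraries above all mock libraries. In Col-0, then, 4 of the 8 genes tested were called at 1 h, 2 higher and 2 lower, where 11.9% of all 20295 tested genes were called (9.64% higher and 2.3% lower). At 9 h it was 1 of 8 (11.1% of all genes) and at 24 h 2 of 8 (7.23%). Because the genes were picked with these responses known, nothing is read from these counts.

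**Figure D1:**
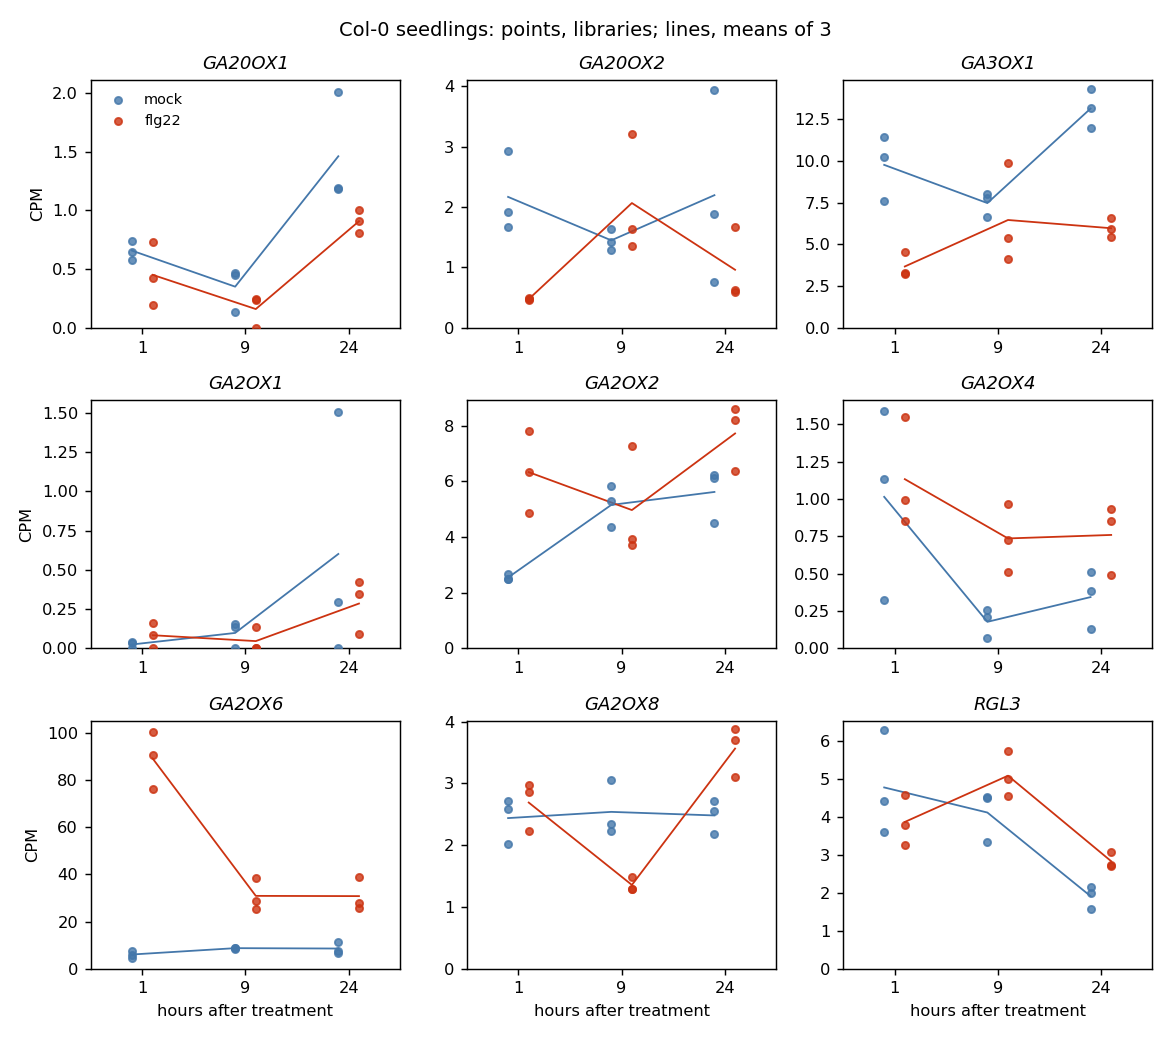
CPM of the 9 genes in Col-0 at 1, 9 and 24 h (equally spaced on the x axis) in mock (blue) and flg22 (red) libraries, each panel with its own linear y axis; points are libraries and lines join means of 3. GA2OX6 is higher with flg22 at every time, with 1 h values of 76.2 to 100.4 CPM, while GA3OX1 is lower at 1 and 24 h.

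The same 4 genes were asked about in 5 further accessions at 1 h. GA2OX6 was called higher in all 5. In Can-0 its mock libraries had 14.1, 10.1 and 12.7 CPM and the flg22 libraries 226.6, 287.7 and 259.2 CPM (log2 4.39 ± 0.18). In No-0 they had 9.66, 9.73 and 8.70 CPM against 305.9, 315.8 and 186.4 CPM (4.81 ± 0.17), the largest difference among accessions. Kn-0 had the smallest, with 22.0, 14.2 and 15.6 CPM against 163.8, 189.6 and 133.9 CPM (3.24 ± 0.21). Gy-0 (3.94 ± 0.16) and Kon (4.54 ± 0.17) lay between. No accession's flg22 and mock libraries overlapped for this gene.

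GA2OX2 was also called higher in all 5 accessions, over a narrow range of differences. The lowest was in Gy-0, with 5.02, 5.81 and 5.56 CPM in mock and 14.7, 19.7 and 23.9 CPM with flg22 (log2 1.81 ± 0.15). The highest was in Kn-0, with 5.15, 2.60 and 3.87 CPM against 15.0, 21.7 and 20.7 CPM (2.33 ± 0.32). Can-0 (2.04 ± 0.21), Kon (2.15 ± 0.22) and No-0 (1.98 ± 0.22) fell within these, and no accession's groups overlapped.

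GA3OX1 was called lower in all 5. Kon had the largest decrease, from 17.7, 25.6 and 13.2 CPM to 2.16, 2.93 and 2.60 CPM (log2 -2.85 ± 0.22). Kn-0 again had the smallest, from 31.7, 30.1 and 26.1 CPM to 14.5, 13.0 and 8.02 CPM (-1.34 ± 0.20). Can-0 (-1.87 ± 0.19), Gy-0 (-2 ± 0.17) and No-0 (-2.29 ± 0.21) were intermediate.

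GA20OX2 was called lower in 4 of the 5 accessions. In No-0 it had 86, 44 and 37 reads in mock and 3, 6 and 2 with flg22 (log2 -3.32 ± 0.52). Kon (-2.62 ± 0.54), Gy-0 (-2.24 ± 0.38) and Can-0 (-2.05 ± 0.39) had smaller decreases without overlap. In Kn-0 the flg22 library of replicate 1 had 1.90 CPM, inside the mock range of 1.503 to 2.22 CPM, beside 0.597 and 0.123 CPM in the others, and the difference (-1.47 ± 0.59) was not called. The Can-0 call was lost without replicate 2 (-1.86), without replicate 3 (-2.05) and without the replicate block (-2.04), the Kon call without replicate 2 (-2.86), and the Gy-0 call without the block (-2.16).

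GA20OX1 was too low to test in any of the 5. In Gy-0 it had 11, 9 and 16 reads in mock and 0 in each flg22 library, at least 2.83-fold lower against a floor of 3 reads per library. In Kn-0 it had 4, 14 and 13 reads against 0, 2 and 0, and in Kon 14, 3 and 5 against 2, 0 and 1. Can-0 (2, 7 and 5 against 1, 1 and 2) and No-0 (2, 0 and 5 against 3, 1 and 0) had overlapping groups. GA2OX1 never exceeded 13 reads in an accession library and GA2OX4 never exceeded 17, and GA2OX4 was tested in Gy-0 alone (log2 0.10 ± 0.45).

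GA2OX8 was not called in any of the 5 accessions (log2 0.22 to 0.51), and its flg22 and mock libraries overlapped in each. RGL3 was not called either (-0.65 to 0.20). Its largest difference, in Can-0, came from mock libraries at 8.04, 2.80 and 2.65 CPM and flg22 libraries at 4.51, 1.65 and 2.17 CPM: each flg22 library was below its own mock library, and replicate 1 was high in both. Over the 5 accessions 19 of 31 gene and accession pairs tested were called, beside 16.4% of all genes in Can-0, 14.8% in Gy-0, 9.21% in Kn-0, 20.4% in Kon and 20.7% in No-0. In No-0 the root genes summed to 16 to 19 CPM in mock and 31.4 to 60.6 CPM with flg22, and in Kon to 11.1 to 13.5 and 21.1 to 29.0 CPM, and the part of this in the values above was not tested. Differences in response between accessions were not tested.

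**Figure D2:**
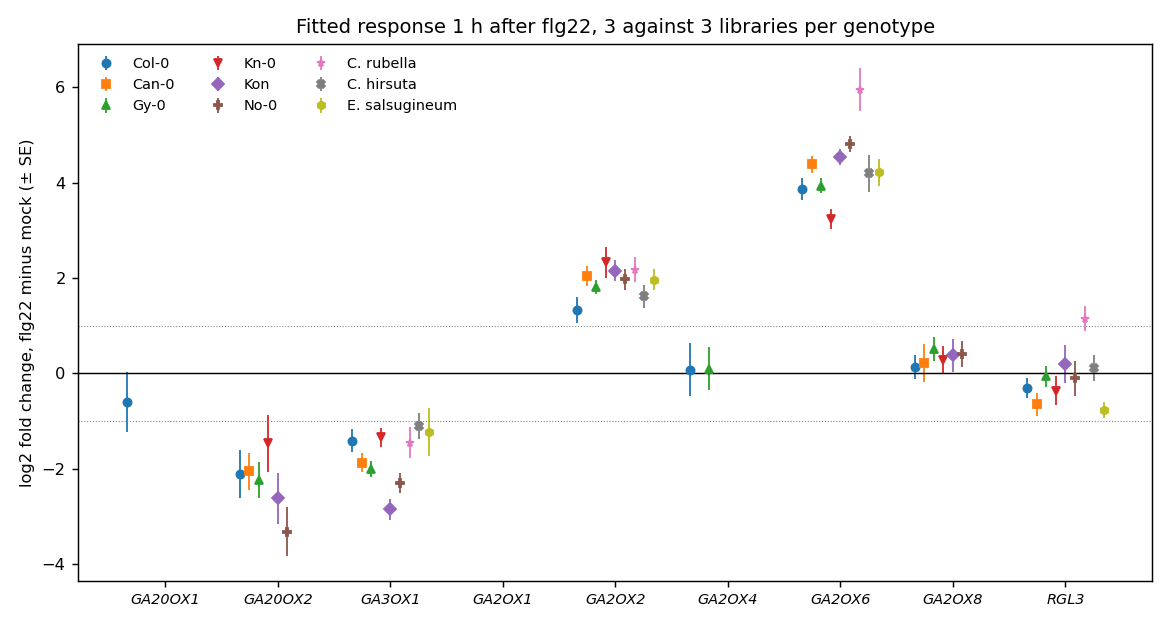
Fitted log2 fold change (flg22 minus mock, y axis) at 1 h for each gene in each of the 9 genotypes with 3 libraries per group; bars are SE, dotted lines mark -1 and 1, and a missing point means the gene was too low to test or its ortholog was not analysed here. GA2OX6 lies between 3.24 and 5.95 and GA2OX2 between 1.33 and 2.33, GA3OX1 lies between -2.85 and -1.11, and RGL3 falls on both sides of 0.

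The listed orthologs of GA2OX6 were called higher at 1 h in the 3 other species. In C. rubella (Carubv10009706) mock libraries had 1.28, 3.11 and 1.94 CPM and flg22 libraries 146.7, 103.4 and 151.2 CPM (log2 5.95 ± 0.45). In C. hirsuta (CARHR001720) they had 5.29, 3.70 and 3.67 CPM against 56.0, 91.0 and 69.3 CPM (4.20 ± 0.39). In E. salsugineum (Thhalv10008179) they had 3.87, 11.1 and 5.14 CPM against 129.7, 113.2 and 116.7 CPM (4.22 ± 0.28). No species had overlapping groups at this hour. C. rubella combined the lowest mock mean of the 4 species, 2.11 ± 0.93 CPM (SD, n = 3), with a flg22 mean of 134 ± 26.4 CPM, but levels of different genes in different annotations are not on one scale and the species were not tested against each other.

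At 9 h the GA2OX6 orthologs had log2 differences of 0.73 ± 0.26 in E. salsugineum, 1.44 ± 0.37 in C. hirsuta and 0.94 ± 0.37 in C. rubella, none called by edgeR. The C. hirsuta difference was called with DESeq2 (1.47), without the filter on low counts (1.45) and without replicate 1 (1.61). In C. hirsuta at that hour all flg22 libraries (9.86, 6.86 and 8.12 CPM) stood above all mock libraries (4.62, 2.87 and 2.11 CPM). At 24 h C. rubella was called again, with 5.36, 3.37 and 2.16 CPM in mock and 21.6, 19.7 and 12.6 CPM with flg22 (2.33 ± 0.39). C. hirsuta (0.89 ± 0.34) and E. salsugineum (0.46 ± 0.25) were not, and their groups overlapped.

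GA2OX2 orthologs were called higher at 1 h in each of the 3 species. C. rubella (Carubv10009631) went from 7.11, 7.47 and 5.91 CPM to 30.5, 32.2 and 30.2 CPM (log2 2.18 ± 0.26). C. hirsuta (CARHR029360) went from 4.71, 6.08 and 2.99 CPM to 13.7, 20.7 and 8.69 CPM (1.62 ± 0.24), a call lost without replicate 2 (1.56). E. salsugineum (Thhalv10008120) went from 6.63, 15.9 and 8.52 CPM to 30.9, 61.1 and 30.4 CPM (1.97 ± 0.22), and replicate 2 was the highest of both groups. The groups did not overlap in any of these.

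Later differences of the GA2OX2 orthologs varied by species. In C. rubella the 24 h libraries had 5.93, 6.51 and 6.12 CPM in mock and 18.6, 19.2 and 21.3 CPM with flg22 (log2 1.68 ± 0.26), a call lost without replicate 2 (1.78). In C. hirsuta the 9 h libraries had 10.9, 9.53 and 6.93 CPM against 17.6, 23.6 and 13.9 CPM (1 ± 0.23). This value sat at the fold threshold, and the call was lost without replicate 2 (0.87), without replicate 3 (1) and without the replicate block (1.01). The other later differences, 0.62 ± 0.25 in C. rubella at 9 h, 0.41 ± 0.23 in C. hirsuta at 24 h, and 0.55 ± 0.22 and 0.44 ± 0.21 in E. salsugineum at 9 and 24 h, were positive and not called. The C. rubella value was lowered by replicate 1, whose mock library had 24.4 CPM beside 13.8 and 9.06 CPM in the others. The flg22 library of that replicate had 18.9 CPM, and without that replicate the difference was larger and was called (1.2).

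GA3OX1 orthologs were lower at 1 h and called in 2 of the 3 species. C. rubella (Carubv10009532) went from 2.06, 3.22 and 2.19 CPM to 1.07, 0.773 and 0.868 CPM (log2 -1.45 ± 0.33), a call lost without replicate 2 (-1.05) or replicate 3 (-1.5). C. hirsuta (CARHR016110) went from 4.53, 2.46 and 3.95 CPM to 2.46, 1.45 and 1.29 CPM (-1.11 ± 0.27), a call lost whichever replicate was left out (-1.24 to -0.82) and without the block (-1.06). E. salsugineum (Thhalv10008008) had 5.38, 2.84 and 10.9 CPM in mock and 2.31, 2.17 and 3.21 CPM with flg22. Each flg22 library was below the mock library of its experiment, but the mock libraries were far apart and the difference of -1.23 ± 0.50 was not called; without replicate 2 (-1.52) it was. At 9 and 24 h no GA3OX1 ortholog was called (-0.69 to 0.42).

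RGL3 orthologs went in different directions at 1 h. In C. rubella (Carubv10003592) mock libraries had 7.08, 3.63 and 5.44 CPM and flg22 libraries 18.1, 7.92 and 10.3 CPM (log2 1.15 ± 0.27), its only call among the 9 genotypes at that hour, lost whichever replicate was left out (1.01 to 1.26). In E. salsugineum (Thhalv10015535) they had 8.15, 5.19 and 7.97 CPM against 4.36, 3.53 and 4.47 CPM (-0.77 ± 0.17), lower without overlap and under the fold threshold. In C. hirsuta (CARHR195710) they overlapped at 1.21, 1.15 and 1.04 CPM against 1.88, 1.00 and 0.930 CPM (0.11 ± 0.27). At 9 and 24 h no RGL3 ortholog was called (-0.37 to 0.47). Of the 4 orthologs, C. rubella had 4 called at 1 h (19.9% of all tested genes were), 0 at 9 h (2.27%) and 2 at 24 h (7.66%). C. hirsuta had 3 called at 1 h (13.9%), 1 at 9 h (6.54%) and 0 at 24 h (1.36%). E. salsugineum had 2 called at 1 h (12.4%), 0 at 9 h (2.63%) and 0 at 24 h (3.08%). Because a response can have brought these genes into the lists, nothing is read from these counts.

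**Figure D3:**
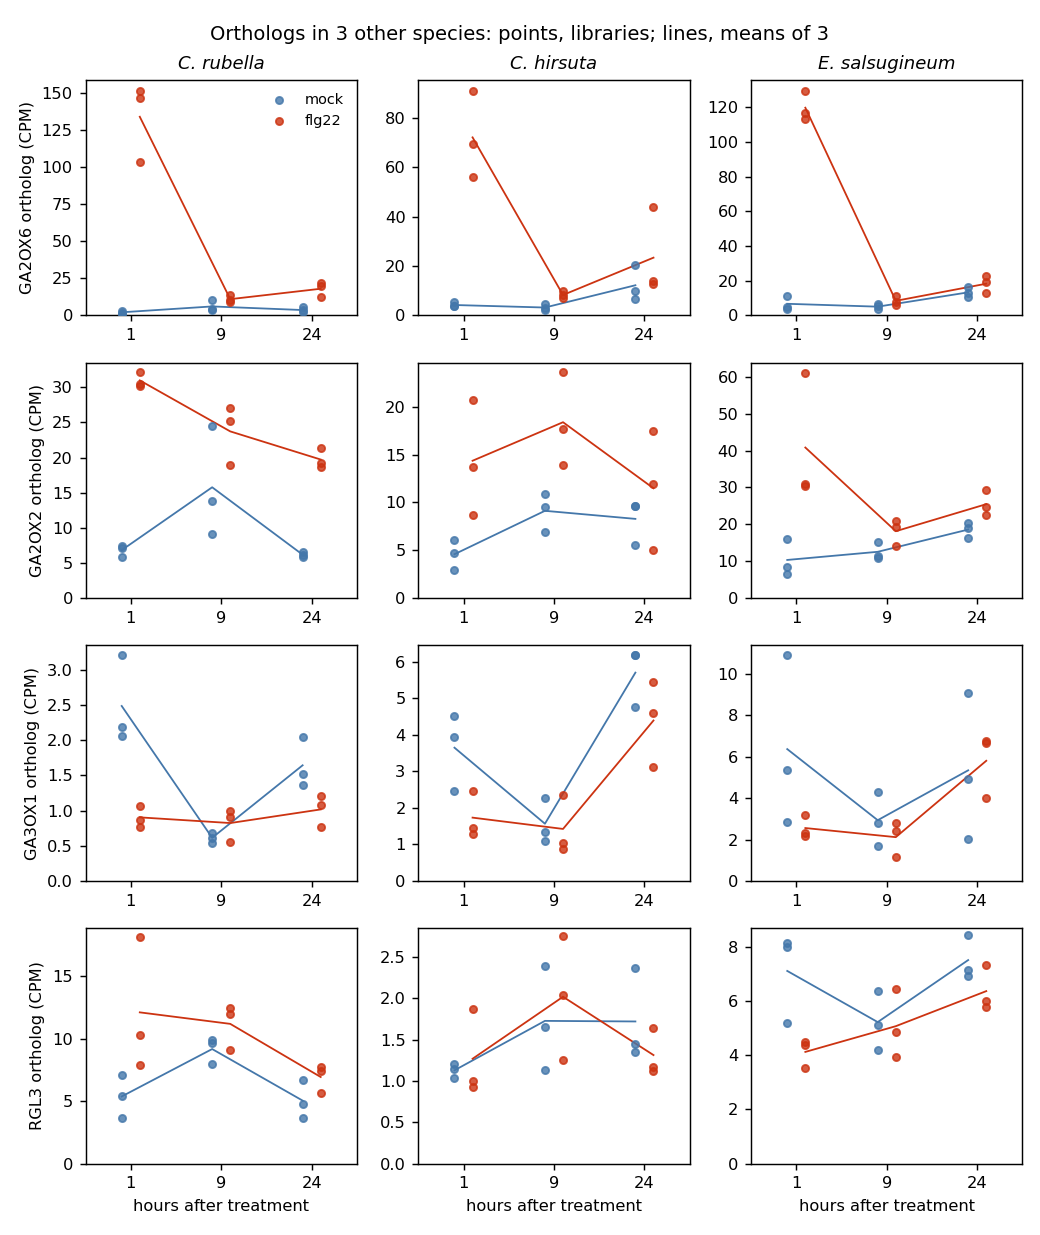
CPM of the 4 listed orthologs (rows) in each of the 3 other species (columns) at 1, 9 and 24 h, in mock (blue) and flg22 (red) libraries, each panel with its own linear y axis; points are libraries and lines join means of 3. The GA2OX6 orthologs reach 56.0 to 151.2 CPM at 1 h and stay below 44 CPM later, and RGL3 is higher with flg22 at 1 h in C. rubella and lower in E. salsugineum.

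Mock libraries alone showed how these transcripts differed between sampling times. These contrasts hold no flg22 library, but their 1 h mock libraries are also the reference of the 1 h flg22 difference. Time after treatment cannot be told apart from the hour of the day. Nor can it be told apart, above all at 24 h, from the greater age of the seedlings and their longer time in liquid medium. Tissue markers also differed between the Col-0 mock times: RBCS1A and CAB1 summed to 22800 to 32500 CPM at 1 h, 13000 to 17100 CPM at 9 h and 11600 to 21100 CPM at 24 h, and EXPA7, COBL9 and MYB36 to 5.57 to 10 CPM, 10.9 to 13.2 CPM and 12.4 to 18.1 CPM. Their part in the changes below was not tested. In Col-0 GA2OX2 was higher at 24 h than at 1 h (5.62 ± 0.97 against 2.55 ± 0.12 CPM, SD, n = 3; log2 1.14 ± 0.27 SE, adjusted p = 0.0044 by edgeR's quasi-likelihood test) and did not pass at 9 h (1.01 ± 0.27, adjusted p = 0.011), where it was called without the filter on low counts (1.02) and with DESeq2 (1.02). RGL3 fell from 4.78 ± 1.38 CPM at 1 h to 1.92 ± 0.29 CPM at 24 h (-1.31 ± 0.22, adjusted p = 0.00024). GA2OX4 fell at 9 h, from 41, 8 and 32 reads to 8, 8 and 2 (-2.56 ± 0.64, adjusted p = 0.0071), a change that rests on few reads.

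These made 3 calls among 16 gene and time pairs tested in Col-0, where 8.07% of all genes were called at 9 h and 9.22% at 24 h. Without replicate 1 none of the 3 held (GA2OX2 1.03, RGL3 -1.11, GA2OX4 -2.29), and without replicate 3 only RGL3 did (GA2OX2 1.26, GA2OX4 -2.07). The GA2OX4 call was also lost with limma-voom (-2.19) and without the replicate block (-2.47). GA2OX6 in mock libraries differed by 0.52 ± 0.23 at 9 h and 0.49 ± 0.23 at 24 h, with no call. GA3OX1 differed by -0.36 ± 0.23 and 0.43 ± 0.23, GA20OX1 by -0.90 ± 0.63 and 1.10 ± 0.58, and GA20OX2 and GA2OX8 by -0.52 to 0.06, none of them called.

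In C. rubella the GA3OX1 ortholog fell in mock from 2.49 ± 0.64 CPM at 1 h to 0.614 ± 0.072 CPM at 9 h (log2 -2.01 ± 0.34, edgeR adjusted p = 0.00041), while that of GA2OX2 rose from 6.83 ± 0.82 to 15.8 ± 7.87 CPM (1.18 ± 0.26, adjusted p = 0.0033). In C. hirsuta the same pair changed in the same directions at 9 h: GA3OX1 from 3.65 ± 1.06 to 1.57 ± 0.62 CPM (-1.27 ± 0.27, adjusted p = 0.0043) and GA2OX2 from 4.59 ± 1.54 to 9.13 ± 2.03 CPM (1.03 ± 0.24, adjusted p = 0.0076). The 9 h mock level of the C. rubella GA3OX1 ortholog, 0.543, 0.687 and 0.613 CPM, was below all its 1 h flg22 libraries.

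In E. salsugineum the GA2OX6 ortholog rose in mock at 24 h, from 6.71 ± 3.88 to 13.3 ± 2.96 CPM (log2 1.02 ± 0.26, edgeR adjusted p = 0.0095), although the highest 1 h library (11.1 CPM) lay above the lowest 24 h library (10.7 CPM). GA2OX2 there had 0.91 ± 0.22 with adjusted p = 0.0073, under the fold threshold. These 5 calls among 24 pairs stand beside the shares of all genes called, 9.12% at 9 h and 5.36% at 24 h for C. rubella, 6.35% and 6.57% for C. hirsuta, and 7.28% and 5.87% for E. salsugineum. Each of the 5 was lost on leaving out at least 1 replicate: C. rubella GA3OX1 without replicate 2 (-1.87) or 3 (-2.08), C. rubella GA2OX2 without replicate 1 (0.75) or 2 (1.33), both C. hirsuta calls without any one of them (-1.43 to -0.94 and 0.94 to 1.2), and E. salsugineum GA2OX6 without replicate 1 (0.90) or 3 (0.86). Without the replicate block the C. hirsuta calls (-1.21 and 0.99) and the E. salsugineum call (0.97) were lost too, and limma-voom did not call C. hirsuta GA2OX2 (1.01) or E. salsugineum GA2OX6 (0.98). Other settings added calls: C. hirsuta GA2OX6 at 24 h (1.44 ± 0.36, edgeR adjusted p = 0.011) was called with DESeq2 size factors (1.47), without the filter (1.43), with DESeq2 (1.46) and without replicate 1 (1.14), C. rubella GA2OX6 at 9 h with DESeq2 (1.43), and E. salsugineum GA2OX2 at 24 h without replicate 2 (1.29).

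Between the 5 accessions, mock levels at 1 h differed for 1 of the 6 genes tested. GA3OX1 had 11.5, 10.6 and 14.6 CPM in Can-0 and 29.0, 27.7 and 24.9 CPM in Kn-0, the ends of a range of 1.16 on the log2 scale (edgeR quasi-likelihood test over the 5 groups, adjusted p = 0.0081, where 12.2% of all 19980 genes were called). In rising order the means were 12.2 ± 2.1 in Can-0, 16 ± 2.08 in Gy-0, 18.6 ± 6.06 in Kon, 22.4 ± 3.58 in No-0 and 27.2 ± 2.09 CPM in Kn-0 (SD, n = 3). The libraries of each neighbouring pair in this order overlapped, and no accession passed against the mean of the other 4, where 4.65% of all genes did in Can-0, 3.41% in Gy-0, 2.92% in Kn-0, 3.51% in Kon and 4.43% in No-0 (Kn-0 0.69 ± 0.18, adjusted p = 0.023; Can-0 -0.76 ± 0.21, adjusted p = 0.016). The call was lost without replicate 1 (range 1.05), without replicate 2 (1.05) and without the filter on low counts (1.16).

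GA2OX8 had the widest range of fitted mock levels, 1.96 on the log2 scale, from 1.07 ± 0.50 CPM in Can-0 to 4.16 ± 1.23 CPM in No-0 (SD, n = 3), with an edgeR adjusted p of 0.020 that missed the threshold. With replicate number as a block it passed (range 2.07), as it did without replicate 3 (2.55) and with DESeq2 (1.95). Against the mean of the other 4 accessions, No-0 (1.2 ± 0.32) and Can-0 (-1.26 ± 0.40) were not called. No-0 was called with DESeq2 (1.21), with limma-voom (1.22), without replicate 3 (1.64) and with the block (1.29), and Can-0 with the block (-1.3). RGL3 ranged from 1.71 ± 0.72 CPM in Kon to 4.51 ± 3.09 CPM in Can-0 (range 1.40, adjusted p = 0.11), and the Can-0 mean held the library at 8.07 CPM. GA2OX6 (range 0.54), GA2OX2 (0.53) and GA20OX2 (0.89) gave adjusted p-values of 0.36, 0.40 and 0.45. Col-0 was not compared with these accessions, because its libraries were sequenced on another instrument with another read length, and this batch cannot be told apart from the genotype. Whether accession reads were aligned to Col-0 or to genomes corrected for variants is not stated with the counts. The part of alignment in the differences among the 5 accessions was not tested.

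**Figure D4:**
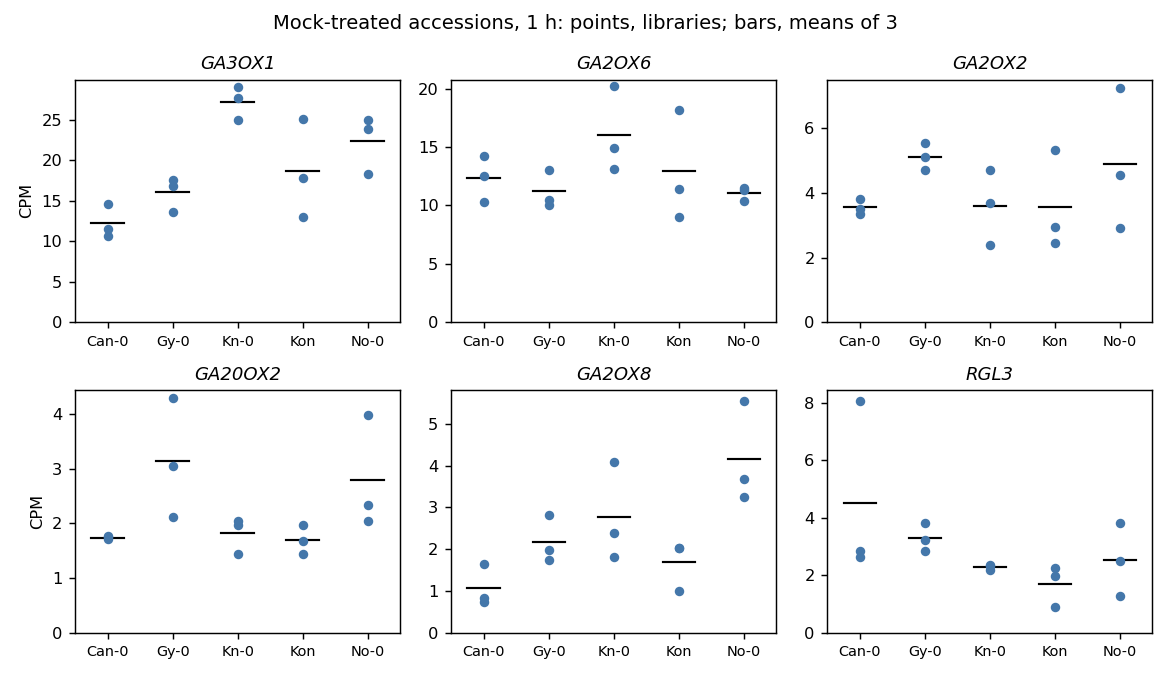
CPM at 1 h in the 5 mock-treated accessions for the 6 genes that were tested, each panel with its own linear y axis; points are libraries and black bars are means of 3. GA3OX1 is lowest in Can-0 (10.6 to 14.6 CPM) and highest in Kn-0 (24.9 to 29.0 CPM), and the Can-0 mean of RGL3 includes 1 library at 8.07 CPM.

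The rest of the gibberellin pathway was described by a list of 31 genes of synthesis, inactivation, perception and response. In Col-0 at 1 h, 23 were tested, 1 was called higher and 1 lower, beside 11.9% of all genes called, and the median log2 difference was -0.42 beside -0.09 over all genes. In the accessions 1 gene was called higher in each, and 2 (Gy-0 and Kn-0) to 5 (Kon) were called lower out of 20 to 22 tested, beside 9.21% (Kn-0) to 20.7% (No-0) of all genes, with medians of -0.56 to -0.27 beside -0.06 to -0.02 over all genes. In Col-0 2 of the 23 were called lower at 9 h and none at 24 h, where 11.1% and 7.23% of all genes were called. These Col-0 counts lie near or below the share of all genes and are no result about the list.

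Values in this paragraph are at 1 h unless another hour is given. The gene called higher was GID1B, which encodes a gibberellin receptor. It rose from 19.3 ± 0.75 to 65.1 ± 13.0 CPM in Col-0 (SD, n = 3, log2 1.73 ± 0.16 SE) and by 1.92 to 2.56 in the 5 accessions. In Col-0 GID1B was not called at 9 h (0.78 ± 0.15) or 24 h (0.81 ± 0.15). GASA6, a gibberellin-responsive gene of the GASA peptide family, was called lower in all 6, from 205 ± 31.5 to 47.8 ± 11.4 CPM in Col-0 (-2.14 ± 0.22). It was not called in Col-0 at 9 h (-0.78 ± 0.22) or 24 h (-0.08 ± 0.22). Of the other response genes on the list, GASA1 and GASA4 were called in none of the 6 at 1 h (-0.96 to 0.25 and -0.76 to 0.28). SCL3 was called in Kon only (-1.24 ± 0.20). The 2 genes called lower in Col-0 at 9 h were GASA4 (-1.04 ± 0.20) and KS (-1.21 ± 0.24), which is listed under early synthesis. GAMT2, a methyltransferase listed with the inactivating enzymes, was called lower in 4 of the 5 accessions (-3.12 to -2.01). It was not called in No-0 (-1.2 ± 0.55) or Col-0 (-1.53 ± 1.24). GAI, a DELLA gene, was called lower in Can-0 (-1.13 ± 0.14), Kon (-1.57 ± 0.14) and No-0 (-1.10 ± 0.17), and had -0.45 ± 0.14 in Col-0, -0.82 ± 0.11 in Gy-0 and -0.42 ± 0.21 in Kn-0. Of the other receptor and DELLA genes, GID1C, RGA and RGL2 were called in none of the 6, GID1A was called lower in Kon (-1.07 ± 0.18) and RGL1 in Can-0 (-1.45 ± 0.24).

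Across the 18 Col-0 libraries the genes whose log2 CPM was most like that of GA2OX6 were AT1G16670 (Pearson r = 0.99), IGMT2 (0.98) and AT5G56960 (0.98). For GA2OX2 they were ABCI19 (0.85), AT2G04070 (0.83) and AT4G08555 (0.82), for GA2OX4 WES1 (0.87), MAKR6 (0.82) and NET4B (0.82), and for GA2OX8 CYCP3;1 (0.80), FAF3 (0.80) and HB-2 (0.79). For GA3OX1 they were AT3G29410 (0.91), SCY2 (0.87) and UMAMIT34 (0.87), for GA20OX2 CSN6B (0.89), AT1G31500 (0.84) and AT4G35530 (0.83), and for GA20OX1 AT2G26750 (0.93), SAUR15 (0.92) and AT5G59740 (0.91). RGL3 was most like AtCaN2 (0.94), FBS2 (0.92) and AT5G56520 (0.91). Among the members themselves r was lowest between GA3OX1 and GA2OX6 (-0.79) and highest between GA20OX1 and GA2OX8 (0.60). The next lowest value, -0.64, was found both for GA20OX2 with GA2OX6 and for GA20OX1 with RGL3. The next highest were 0.57 between GA20OX2 and GA3OX1 and 0.54 between GA2OX2 and GA2OX6. These libraries share 6 treatment and time groups of 3, so r describes the pattern over those groups and has no p.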

How the data were processed

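Whole-seedling RNA was sequenced from 102 samples (34 groups of 3). Tables of unnormalized gene counts were deposited by the authors, made by HTSeq 0.6.0 after CASAVA 1.8.2 and cutadapt 1.5 (submitters' processing notes; genome TAIR10 for A. thaliana). Per the study's methods, reads were poly(A)-selected, strand-specific and aligned with TopHat2, and accession reads were aligned both to Col-0 and to genomes corrected for variants. The paper's own accession analyses rest on the Col-0 alignment, while its list of genomes gives the corrected ones, and the deposited tables do not name theirs. HTSeq's own summary lines (12.2 to 50% of a library in the 4 species, 7.11 to 10.4% in the accessions) were left out of totals. All 102 columns were matched to samples by name, and no libraries were identical.

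Counts were analysed in R 4.3.3 with edgeR 4.0.16 (TMM, glmQLFit and glmQLFTest), 1 fit per species (18 libraries) or accession (6), for genes averaging 10 or more counts per library, with replicate number as a block. Mock accession levels were fitted over 30 libraries without a block. Benjamini-Hochberg adjustment ran over all genes tested, and a call needed an adjusted p below 0.01 and an absolute log2 fold change above 1. Standard errors were derived from each log2 fold change and its F statistic. Per the study's methods mock and flg22 seedlings of a number were treated side by side. In 51 pairs of same-numbered mock and flg22 libraries, deviations from the group means correlated with a median r of 0.36 (-0.068 to 0.79, 45 above 0.1). The 3 pairs of a comparison share group means and are not independent. Errors cover the spread between these 3 experiments only. Alternatives were DESeq2 size factors, no filter, DESeq2 1.42.0, limma-voom (limma 3.58.1), each replicate left out, and the block removed or added. Scripts were tested on simulated data.

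The members and gene lists were chosen with earlier results of these data known. Named besides the 9 members are pathway genes called at 1 h in Col-0 or in at least 3 of the 5 accessions, and the 3 genes with the highest Pearson r to each tested member (log2 CPM, prior count 2). KS and the other receptor, DELLA and response genes were added after their values were seen. Gene symbols, gene starts and upstream sequences are from RefSeq's TAIR10.1 annotation. The deposited tables carry no coordinates.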

Additional observations from a re-analysis of the deposited data

Results flagged for a closer look

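Some flg22 responses had opposite signs in different settings in every replicate pair. None of these differences was itself tested, and neither direction was called except for C. rubella RGL3 at 1 h. GA2OX8 in Col-0 was lower with flg22 in 3 of 3 pairs at 9 h (log2 -0.91) and higher in 3 of 3 pairs at 24 h (0.52). RGL3 at 1 h was higher in 3 of 3 pairs in C. rubella (1.15) and lower in 3 of 3 pairs in Can-0 (-0.65), Kn-0 (-0.36) and E. salsugineum (-0.77). At 24 h RGL3 was higher in 3 of 3 pairs in Col-0 (0.58) and lower in 3 of 3 pairs in C. hirsuta (-0.37) and E. salsugineum (-0.24). Groups of 3 libraries are too small to look for a library that stands apart.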

How the results depend on the processing

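No called value changed sign under any alternative. The number of member calls against mock was 7 in Col-0 (4 to 5 with a replicate left out, 8 with DESeq2), 19 in the 5 accessions (17 to 19, and 20 without the filter on low counts) and 12 in the 3 other species (7 to 12, and 13 without the filter or with DESeq2). For mock times it was 3 in Col-0 (0 to 3, 4 without the filter or with DESeq2, and 2 with limma-voom) and 5 in the other species (1 to 2), where it was 6 with DESeq2 size factors, 6 without the filter, 7 with DESeq2, 3 with limma-voom and 2 without the replicate block. Between accessions it was 1 (0 to 2 with a replicate left out), 0 without the filter, 2 with DESeq2 and 2 with the replicate block, the second gene being GA2OX8. Without the block 7, 17 and 10 calls against mock were made in Col-0, the accessions and the other species, and 2 for the Col-0 mock times. With DESeq2 GA2OX4 in Col-0 at 9 h (2.05) and GA2OX6 in C. hirsuta at 9 h (1.47) were also called against mock. Low counts limit GA20OX1, GA2OX1 and GA2OX4, and a response of these genes in the accessions was mostly not detectable at this depth. With 2 replicates a call needs a larger difference, so its loss is in part the smaller number of samples.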
